A study of Mus musculus with 6 samples.

Results

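Creatine, arginine and polyamine metabolism share the amino acids arginine and ornithine, and 9 of its genes were examined among the 28773 genes quantified in splenic CD8+ T cells on day 35. They were Gatm, Gamt, Slc6a8 and Ckb of creatine metabolism and Odc1, Oaz1, Srm, Sat1 and Amd1 of polyamine metabolism. Each symbol matched 1 gene ID. The genes were picked with their difference between the groups already known, so their own values are a description and carry no test. Of the 9 genes, 7 reached the mean FPKM of 1 over the 6 samples that was required for the fit, and Gamt and Slc6a8 did not. FPKM is a count of sequenced fragments scaled to transcript length and to library size, so levels of different genes can be compared.

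The 3 MWA+PBS samples came from mice whose tumor was treated by microwave ablation (MWA) and that then received PBS, the vehicle. The 3 MWA+2DG samples came from mice given the same ablation and then 2DG (2-deoxy-D-glucose), which cells take up like glucose and which inhibits glycolysis. Both groups thus carried a tumor and its ablation, and no sample without ablation was analysed here. By the study's schedule the 2DG injections ended before day 35, and its plasma assay found no 2DG some days after the last one. The labels give no strain, age, tumor line or batch for these samples and do not say whether mice were pooled, so the p-values measure the spread between samples, which may be technical. The study worked with tumors transplanted into female BALB/c and C57BL/6 mice, and its methods do not say which of them gave these samples. It isolated the cells with a CD8+ T cell kit after lysis of red cells.

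Creatine is made in a pair of steps: GATM joins arginine and glycine, which also releases ornithine, and GAMT methylates the product. SLC6A8 carries creatine into cells, and creatine kinases such as CKB use it to buffer ATP. Ornithine is turned by ODC1 into putrescine, the first polyamine. AMD1 supplies the aminopropyl groups with which SRM and SMS extend putrescine to spermidine and spermine, SAT1 acetylates polyamines for breakdown or export, and antizyme, from Oaz1, marks ODC1 for degradation. Polyamine synthesis is induced when T cells are activated and divide, and spermidine is the donor for hypusine, the modified residue of the translation factor made from Eif5a.

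Between 22414 and 23340 genes were above 0 in a sample, and FPKM do not give the depth. The identity of the samples was checked first. Cd8a was 231.5 ± 6.96 FPKM in MWA+PBS against 366.4 ± 9.48 FPKM in MWA+2DG (SD, n = 3), while Cd4 was 2.75 ± 0.16 FPKM and 1.66 ± 0.11 FPKM. Of the 6 CD8 T cell identity genes, 5 were called higher in MWA+2DG and 1, Cd4, lower. The 16 T lineage genes used for scaling summed to 1730 to 1818 FPKM and 2404 to 2566 FPKM, with 14 called higher and 0 lower. Other cell types were also present. The summed level of 14 red pulp macrophage and monocyte markers was 1086 to 1159 FPKM in MWA+PBS against 341.7 to 378.2 FPKM in MWA+2DG, with 13 of the markers called lower and 1, Lyz2, called higher. None of these markers was at 0 in any sample. The 10 neutrophil markers summed to 65.2 to 89.0 FPKM and 1536 to 1710 FPKM, the 10 B cell markers to 9.61 to 10.5 FPKM and 53.0 to 58.2 FPKM, and the 12 erythroid markers to 325.7 to 382.6 FPKM and 86.7 to 102.7 FPKM. The 15 proliferation markers summed to 262.8 to 281.7 FPKM and 175.4 to 181.8 FPKM, with 14 called lower, and the 15 immediate early and stress genes summed to 1028 to 1089 FPKM and 227.1 to 237.4 FPKM, with 13 called lower. Plasma cell, dendritic cell and platelet markers had 3 genes called lower each and 0 higher, and natural killer cell markers had 3 lower and 3 higher. The 14 kidney tubule markers summed to 80.6 and 115.7 FPKM in MWA+PBS replicates 1 and 2, to 11.2 FPKM in MWA+PBS replicate 3, where 8 of them were at 0, and to between 4.58 and 5.37 FPKM in MWA+2DG. In such bulk samples fewer cells of a type and less RNA per cell cannot be told apart.

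Gatm and Ckb had the largest differences among the 9 genes, so the 250 bases before their RefSeq start sites (build GRCm38.p6) are shown. Gatm lies on the minus strand, chr2:122611278-122611527, and Ckb on the minus strand, chr12:111672339-111672588. Capitals mark matches on either strand to CCAAT and to TATAAA, 2 of 5 motifs searched.
Gatm: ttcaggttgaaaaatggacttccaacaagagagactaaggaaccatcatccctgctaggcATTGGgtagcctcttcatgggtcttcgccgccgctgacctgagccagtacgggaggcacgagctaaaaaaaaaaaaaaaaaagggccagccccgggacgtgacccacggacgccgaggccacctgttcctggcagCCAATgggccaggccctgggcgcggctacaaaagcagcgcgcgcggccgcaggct
Ckb: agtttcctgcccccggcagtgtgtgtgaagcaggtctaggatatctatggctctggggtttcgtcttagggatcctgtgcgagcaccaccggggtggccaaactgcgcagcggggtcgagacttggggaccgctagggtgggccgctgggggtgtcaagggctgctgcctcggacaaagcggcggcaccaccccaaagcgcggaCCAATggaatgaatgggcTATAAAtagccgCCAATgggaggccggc
Both windows held 2 CCAAT matches, whose first bases lay 190 and 55 bases before the start in Gatm and 46 and 16 bases before it in Ckb. Ckb also held TATAAA, 28 bases before the start. Of 32851 promoters of the same length, 33.9% had a CCAAT match and 12.4% a TATAAA match. RefSeq promoters were at hand for 7 of the 9 genes, namely Gatm, Gamt, Ckb, Odc1, Oaz1, Sat1 and Amd1. CCAAT was found in 3 of the 7, namely Gatm, Ckb and Oaz1, whose log2 difference was only -0.14. GGGCGG, the GC box, was found in 4, against 32.7% of all promoters. The E-box CACGTG and the cyclic AMP response element TGACGTCA were found in 0 of the 7 windows, against 6.02% and 1.55% of all promoters. Only these 250 bases were searched, so sites elsewhere in a gene would be missed. No motif contains another, and a match is a description of the sequence only.

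The window of Odc1, on the plus strand at chr12:17544623-17544872, is also shown. It is rich in G and C (80.0%, against 59.2% in Gatm, 62.8% in Ckb and a median of 52.4% over all promoters). It held 4 GC boxes, in capitals, but neither CCAAT nor TATAAA.
Odc1: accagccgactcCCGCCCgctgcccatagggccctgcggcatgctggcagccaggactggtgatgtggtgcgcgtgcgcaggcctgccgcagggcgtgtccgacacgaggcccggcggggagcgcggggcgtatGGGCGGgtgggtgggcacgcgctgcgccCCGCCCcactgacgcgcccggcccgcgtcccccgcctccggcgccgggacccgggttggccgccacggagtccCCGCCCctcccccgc

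Gatm was much lower in MWA+2DG. It encodes the first and regulated enzyme of creatine synthesis. Gatm (ENSMUSG00000027199) was 17.5, 16.0 and 16.2 FPKM in MWA+PBS versus 2.92, 2.47 and 3.38 FPKM in MWA+2DG. All 3 MWA+2DG samples lay far below all 3 MWA+PBS samples. The means were 16.6 ± 0.80 FPKM and 2.92 ± 0.46 FPKM (SD, n = 3), so the MWA+2DG level was 17.7% of the MWA+PBS level. The difference of log2(FPKM + 1) was -2.17 ± 0.09 (SE), and it was -2.47 with a pseudocount of 0.1. Kidney tubule cells are a known site of Gatm expression. The kidney gene Kap was 31.6 and 67.7 FPKM in MWA+PBS replicates 1 and 2 and listed at 0 in replicate 3 and in all MWA+2DG samples, and the part of kidney transcripts in the difference of Gatm was not tested. Without any 1 sample the difference of Gatm stayed between -2.25 and -2.08.

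Gamt and Slc6a8, the other genes of creatine synthesis and uptake, were close to the lower limit of the files. Gamt was 0.28, 0.00 and 0.24 FPKM in MWA+PBS against 0.19, 0.34 and 0.15 FPKM in MWA+2DG. Slc6a8 was 0.28, 0.47 and 0.25 FPKM and 0.31, 0.29 and 0.37 FPKM. The groups overlapped for both genes. Within the same samples Gatm therefore stood 34.0 to 65.0 times above Slc6a8 in MWA+PBS against 8.52 to 9.42 times above it in MWA+2DG.

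Ckb, the brain-type cytosolic creatine kinase, was the only creatine kinase that passed the filter. Ckb (ENSMUSG00000001270) was 6.45, 5.85 and 5.66 FPKM in MWA+PBS versus 1.69, 1.35 and 1.61 FPKM in MWA+2DG. The groups did not overlap. The MWA+2DG mean of 1.55 ± 0.18 FPKM was 25.9% of the MWA+PBS mean of 5.99 ± 0.41 FPKM (SD, n = 3), a log2 difference of -1.45 ± 0.09 (SE), or -1.89 with a pseudocount of 0.1. The mitochondrial kinase Ckmt1 was 0.04, 1.04 and 0.00 FPKM and 1.09, 0.86 and 1.17 FPKM, and the muscle kinases Ckm and Ckmt2 did not exceed 0.07 FPKM in any sample. The Ckmt1 groups overlapped because of MWA+PBS replicate 2.

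**Figure D1:**
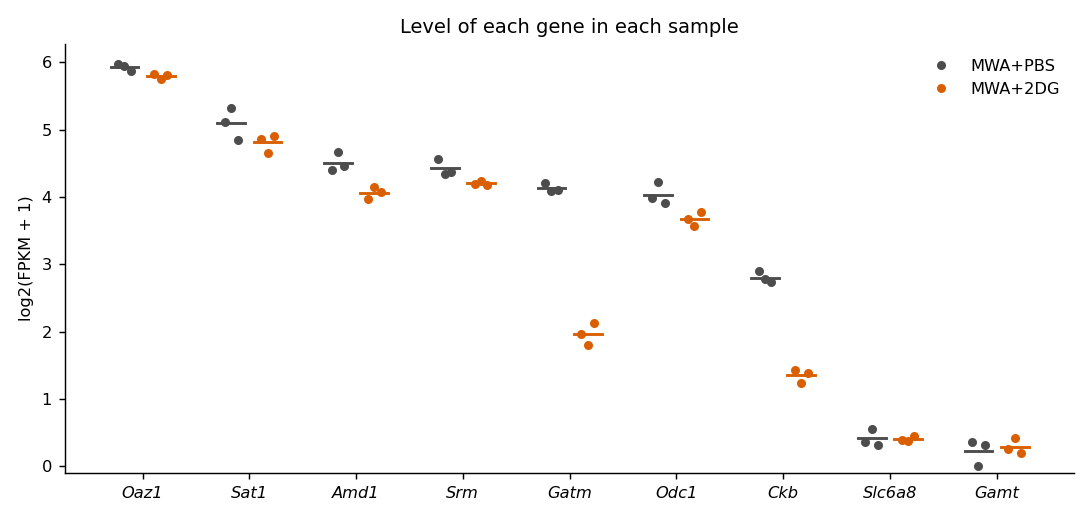
Level of each of the 9 genes, as log2(FPKM + 1), in the 3 MWA+PBS (grey) and 3 MWA+2DG samples (orange), with points for samples and bars for group means. Gatm and Ckb show the widest gaps between the groups, while Oaz1 was highest in every sample and Slc6a8 and Gamt lay near 0.

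The genes whose profiles over the 6 samples were closest to those of Gatm and Ckb were then looked up among the 12444 tested genes, by the Euclidean distance between log2(FPKM + 1) values centred on each gene's mean. For Gatm these were Cd163 (distance 0.101), a haemoglobin scavenger receptor of macrophages, Cd14 (0.130), a lipopolysaccharide co-receptor of monocytes and macrophages, and Pira2 (0.143), a myeloid immunoglobulin-like receptor that belongs to a family of near-identical genes. Cd163 was 13.5 ± 0.18 FPKM in MWA+PBS against 2.22 ± 0.44 FPKM in MWA+2DG (SD, n = 3). For Ckb they were Galnt3 (0.105), a glycosyltransferase gene, Vstm4 (0.108) and Lyn (0.115), a Src family kinase gene of B cells and myeloid cells. Lyn was 22.0 ± 0.53 FPKM and 7.38 ± 0.31 FPKM. Such a likeness rests mostly on the difference between the groups and is a description over 6 samples.

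**Figure D2:**
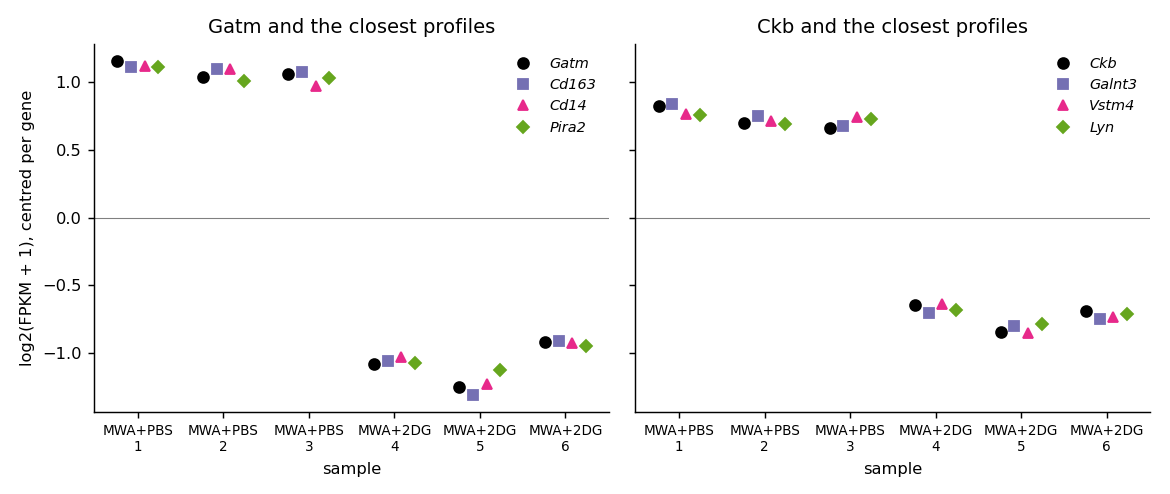
Values of log2(FPKM + 1), centred on each gene's mean, for Gatm and Ckb (black circles) and the 3 closest genes of each (colored) in the 6 samples, which stand in no order within a group. All MWA+PBS values lie above 0 and all MWA+2DG values below it, and within each group the genes differ by less than the gap between the groups.

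Macrophage markers moved with Gatm and Ckb, and the relation to them depended on 1 gene. Per 1000 FPKM of the 14 macrophage and monocyte markers, Gatm was 14.5 to 15.1 in MWA+PBS against 7.23 to 8.94 in MWA+2DG, and Ckb was 5.21 to 5.56 and 3.95 to 4.54. Without Lyz2, which neutrophils also express, the other 13 markers summed to 920.8 to 990.0 FPKM and 131.5 to 141.3 FPKM. Per 1000 FPKM of these 13, Gatm was 17.3 to 17.7 in MWA+PBS versus 18.8 to 24.5 in MWA+2DG, and Ckb was 6.11 to 6.52 and 10.3 to 11.96. The direction of both ratios thus turned when Lyz2 was left out. What part the macrophage transcripts had in the differences of Gatm and Ckb was not tested.

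The polyamine genes included the 4 most abundant of the 9 in MWA+PBS and differed less than Gatm and Ckb. The proliferation, neutrophil and other marker lists given above moved between the same groups, and their part in the differences of the polyamine genes was not tested. Their order in MWA+PBS was Oaz1, Sat1, Amd1, Srm and Odc1, and the values of Amd1 and Srm overlapped there. In MWA+2DG it was Oaz1, Sat1, Srm, Amd1 and Odc1, and none of these neighbors overlapped. Gatm ranked 5 of the 9 in MWA+PBS, where its values overlapped those of Odc1, and 6 in MWA+2DG, where they lay apart from both neighbors, Odc1 and Ckb. Slc6a8 and Gamt overlapped each other at the bottom in both groups.

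Odc1, the rate-limiting enzyme of polyamine synthesis, had lower values in each MWA+2DG sample. Odc1 (ENSMUSG00000011179) was 14.8, 17.6 and 14.0 FPKM in MWA+PBS versus 11.8, 10.9 and 12.7 FPKM in MWA+2DG. The groups did not overlap, but the gap between the nearest samples was smaller than the range within MWA+PBS. The means were 15.5 ± 1.88 FPKM and 11.8 ± 0.90 FPKM (SD, n = 3), a log2 difference of -0.36 ± 0.09 (SE). Odc1 has 7 annotated copies that match its longest transcript at 95% identity or more over at least 200 bases, and all were in the files. Together they held 10.3 to 11.6 FPKM in the MWA+PBS samples and 9.43 to 9.66 FPKM in the MWA+2DG samples, so the division of reads between Odc1 and its copies is uncertain. Myc, a transcription factor known to induce Odc1, was higher in MWA+2DG, at 72.7 ± 2.36 FPKM against 60.3 ± 3.69 FPKM (log2 fold change 0.27 ± 0.06, SE, limma adjusted p = 0.0114). With scaling to T lineage genes, which lowered every gene by 0.43, the difference of Myc was -0.16.

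Amd1, which encodes S-adenosylmethionine decarboxylase, was lower by a like amount. Amd1 (ENSMUSG00000075232) was 20.1, 24.4 and 21.1 FPKM in MWA+PBS against 14.6, 16.7 and 15.9 FPKM in MWA+2DG. The groups did not overlap, with means of 21.8 ± 2.29 FPKM and 15.7 ± 1.02 FPKM (SD, n = 3) and a log2 difference of -0.45 ± 0.08 (SE). Its near copy Amd2 matches it at 99.6% identity over 3202 bases, so the values of the pair are uncertain singly. Amd2 was 4.69 ± 0.28 FPKM and 3.46 ± 0.58 FPKM, and the sum of both genes was 26.5 ± 2.29 FPKM against 19.2 ± 1.03 FPKM (SD, n = 3). That sum leaves out processed pseudogenes, among them Amd-ps3 and Amd-ps4, which match Amd1 at 99.9% and 99.5% over 1005 bases. Amd-ps3 was 2.63 and 2.49 FPKM and Amd-ps4 0.71 and 0.70 FPKM on average, so the sum is uncertain too. The ratio of Amd1 to Amd2 was 4.67 ± 0.55 and 4.64 ± 0.95 and overlapped between the groups.

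The translation of AMD1 protein is known to be repressed by polyamines through a short reading frame in the 5′ leader, which an RNA level does not show. It was found at bases 12 to 32 of an Amd1 transcript (GENCODE M21, GRCm38, minus strand, chr10:40302155-40302175) and at bases 13 to 33 of an Amd2 transcript (minus strand, chr10:35711860-35711880), in an annotated UTR of each. Start, body and stop codon are all in capitals and make 7 codons.
Amd1: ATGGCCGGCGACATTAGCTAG
Amd2: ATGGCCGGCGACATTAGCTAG
The 21 bases are identical in both genes.

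Oaz1 was the highest of the 9 genes and had the smallest difference of the 7 that were fitted. Oaz1 (ENSMUSG00000035242) was 61.8, 60.8 and 57.8 FPKM in MWA+PBS against 55.5, 52.9 and 54.9 FPKM in MWA+2DG. The groups did not overlap, although the means of 60.1 ± 2.09 FPKM and 54.4 ± 1.35 FPKM (SD, n = 3) differed by a log2 value of only -0.14 ± 0.05 (SE). Its processed pseudogene Oaz1-ps, 99.3% identical over 685 bases, was listed at 6.02 FPKM and 5.79 FPKM on average. The ratio of Odc1 to Oaz1 within a sample was 0.239, 0.289 and 0.242 in MWA+PBS versus 0.212, 0.205 and 0.231 in MWA+2DG, without overlap. The antizyme inhibitor gene Azin1 did not pass (log2 fold change -0.10, limma adjusted p = 0.253), nor did the paralog Oaz2 (-0.11, limma adjusted p = 0.451). With scaling to T lineage genes both were called lower, at -0.53 (limma adjusted p = 0.00037) for Azin1 and -0.54 (limma adjusted p = 0.00199) for Oaz2. The testis paralog Oaz3 did not exceed 0.14 FPKM in any sample.

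Antizyme is made only when ribosomes shift frame at a UGA stop codon, which polyamines favor, so its RNA level does not give its protein level. The site is shown from an Oaz1 transcript that keeps it (GENCODE M21, GRCm38, plus strand, chr10:80828273-80828317, coding exon), with the codon before the shift and the stop codon in capitals. The same stretch of a transcript annotated with a gap follows it, with the first bases after the join in capitals.
Oaz1 with the site: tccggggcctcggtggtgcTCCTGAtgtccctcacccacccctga
Oaz1 with the gap: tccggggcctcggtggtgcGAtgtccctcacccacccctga
The gap takes 4 bases, from exon end 80828291 to exon start 80828296, which keeps the reading frame open in the annotation. Of 7 annotated Oaz1 transcripts, 2 keep the full site.

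Srm, the spermidine synthase, was lower in MWA+2DG, and the mean of Sms, the spermine synthase, was higher. Srm (ENSMUSG00000006442) was 22.7, 19.3 and 19.8 FPKM in MWA+PBS against 17.3, 17.9 and 17.1 FPKM in MWA+2DG. The groups did not overlap, with means of 20.6 ± 1.81 FPKM and 17.4 ± 0.43 FPKM (SD, n = 3) and a log2 difference of -0.22 ± 0.07 (SE). Sms was 9.98 ± 0.63 FPKM and 11.4 ± 0.45 FPKM (log2 fold change 0.18 ± 0.06, SE, limma adjusted p = 0.06), which did not pass. It passed as higher with arrayWeights (limma adjusted p = 0.0103) and without MWA+PBS replicate 2 (limma adjusted p = 0.0215), and as lower with scaling to T lineage genes (-0.25, limma adjusted p = 0.00846). The ratio of Srm to Sms was 2.34, 1.81 and 2.07 in MWA+PBS against 1.45, 1.61 and 1.53 in MWA+2DG, without overlap.

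Sat1, which acetylates spermidine and spermine, was the single fitted gene of the 7 whose groups overlapped. Sat1 (ENSMUSG00000025283) was 33.7, 38.9 and 27.8 FPKM in MWA+PBS versus 28.1, 24.2 and 29.1 FPKM in MWA+2DG. MWA+PBS replicate 3 fell within the MWA+2DG range, and the log2 difference of -0.28 ± 0.12 (SE) ranged from -0.17, when MWA+PBS replicate 2 was left out, to -0.41, when MWA+PBS replicate 3 was. Smox, the spermine oxidase, fell from 3.58 ± 0.14 FPKM to 1.98 ± 0.13 FPKM (SD, n = 3), a log2 change of -0.62 ± 0.08 (SE) with a limma adjusted p of 0.000594. Paox, which oxidizes the acetylated polyamines, fell from 3.48 ± 0.48 FPKM to 2.62 ± 0.10 FPKM (log2 fold change -0.31, limma adjusted p = 0.0343), a call lost without any 1 of 5 of the samples (limma adjusted p up to 0.0947). The ratio of Sat1 to Smox was 9.19, 10.6 and 8.11 in MWA+PBS against 14.8, 11.4 and 15.3 in MWA+2DG. Sat2, the paralog of Sat1, was 0.04, 0.25 and 0.15 FPKM in MWA+PBS and listed at 0 in all 3 MWA+2DG samples.

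**Figure D3:**
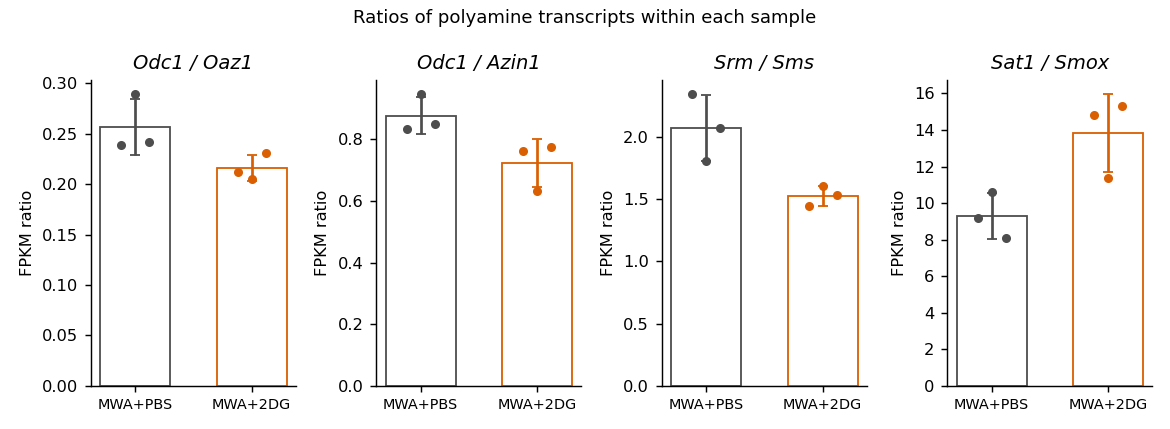
Ratios of FPKM between polyamine genes in each sample (points), with the mean (bar) and SD (line) of 3 samples per group, on axes that start at 0. Odc1 to Oaz1, Odc1 to Azin1 and Srm to Sms were lower in all MWA+2DG samples than in any MWA+PBS sample, and Sat1 to Smox was higher.

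Across the 7 fitted genes the groups did not overlap for 6, each lower in MWA+2DG, while 21.9% of all tested genes had groups that did not overlap in that direction and 30.2% in the other. For 2 of the 7, Gatm and Ckb, the log2 difference was below -1, as it was for 3.89% of all tested genes. The median log2 difference of the 7 genes was -0.36 against 0.05 over all tested genes. Since the genes were picked by this contrast, nothing is read from these counts. With scaling to T lineage genes the differences were all larger in size, at -2.60 for Gatm, -1.88 for Ckb, -0.88 for Amd1, -0.79 for Odc1, -0.71 for Sat1, -0.65 for Srm and -0.57 for Oaz1. Variation within a group was also unequal, from a coefficient of variation of 2.48% for Oaz1 and Srm in MWA+2DG to 16.7% for Sat1 in MWA+PBS.

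The other genes of the same pathways were fitted next. Their lists were also chosen with earlier results of these data known, so their calls are not independent support. Of 50 genes listed, 48 matched a gene ID in the files and 30 passed the filter. With limma and adjustment over all 12444 tested genes (threshold 0.05), 11 of the 30 fell and 3 rose in MWA+2DG, and 16 did not pass. Over all tested genes 39.4% were called, 17.1% lower and 22.3% higher. With scaling to T lineage genes 28 pathway genes were called lower and 0 higher, among 9060 called genes in all. The median log2 fold change of the 30 genes was -0.08. The 11 lower calls became 6 or 7 when a sample other than MWA+PBS replicate 3 was left out, and 10 without that one. The 3 higher calls became 0 without MWA+PBS replicate 1, MWA+PBS replicate 3 or MWA+2DG replicate 4, and 1 without MWA+2DG replicate 5 or 6.

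Among 10 fitted genes of arginine transport, the urea cycle and nitric oxide metabolism, 5 fell and 0 rose. Slc7a7, which encodes a light chain for the export of arginine and lysine and is abundant in macrophages, had the largest fall, from 7.41 ± 0.80 FPKM to 1.44 ± 0.19 FPKM (SD, n = 3), a log2 change of -1.79 ± 0.10 (SE) with a limma adjusted p of 1.26e-05. Slc3a2, its heavy chain and that of other amino acid transporters, fell from 28.1 ± 1.39 FPKM to 19.4 ± 0.75 FPKM (log2 fold change -0.51, limma adjusted p = 0.000444). Ass1, which joins citrulline and aspartate in arginine synthesis, fell from 19.5 ± 0.92 FPKM to 14.8 ± 1.47 FPKM (-0.38, limma adjusted p = 0.00788), while Asl, the next enzyme, was 2.94 ± 0.21 FPKM and 2.99 ± 0.08 FPKM and did not pass (limma adjusted p = 0.877). Oat, which turns ornithine toward proline and glutamate, fell by 0.30 on the log2 scale (limma adjusted p = 0.0273), and Ddah2, which degrades methylated arginines, fell by 0.42 (limma adjusted p = 0.0405). The last 2 calls were each lost without any 1 of 5 samples, at limma adjusted p of up to 0.0893 and 0.128. Both were also lost without a filter (limma adjusted p = 0.0612 for Oat and 0.0946 for Ddah2). That of Ddah2 was lost with quantile normalization too (limma adjusted p = 0.086). The MWA+2DG mean of Ddah2, 0.82 FPKM, was under the filter of 1, which the gene reached only through its MWA+PBS mean of 1.45 FPKM. Its call is among the 5 counted above and holds for values close to the filter. Slc7a1, a main arginine importer of T cells, was 8.01 ± 0.55 FPKM and 7.65 ± 0.15 FPKM and did not pass (limma adjusted p = 0.517).

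Per 1000 FPKM of the 14 macrophage markers, Slc7a7 was 6.06 to 7.05 in MWA+PBS against 3.69 to 4.41 in MWA+2DG, and per 1000 FPKM of the 13 without Lyz2 it was 7.10 to 8.25 and 9.58 to 11.6. The part of these transcripts in the fall of Slc7a7 was not tested.

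Of 8 further fitted genes of polyamine synthesis, breakdown and transport, 4 fell and 0 rose. Beside Smox and Paox these were Atp13a2 and Amd2, and since Amd2 cannot be well separated from Amd1, its call is not independent of a gene picked by this contrast. Atp13a2, which exports polyamines from lysosomes, fell from 17.8 ± 1.89 FPKM to 6.99 ± 0.15 FPKM (SD, n = 3), a log2 change of -1.23 ± 0.08 (SE) with a limma adjusted p of 3.24e-05, while its relative Atp13a3, a polyamine transporter of the cell surface and endosomes, was 22.1 ± 1.67 FPKM and 21.6 ± 1.38 FPKM (limma adjusted p = 0.737). Per 1000 FPKM of macrophage markers Atp13a2 was higher in MWA+2DG with Lyz2 in the list (14.2 to 16.9 against 18.5 to 20.2) and without it (16.99 to 19.9 against 48.8 to 52.6). The call of Amd2 (log2 fold change -0.36, limma adjusted p = 0.0287) was lost without MWA+PBS replicate 1 or 2 or MWA+2DG replicate 4 or 5, at limma adjusted p of up to 0.0904.

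Of the 4 genes of hypusine formation 1 fell and 2 rose. Eif5a, the most abundant gene in these lists, fell from 111.6 ± 7.73 FPKM to 94.5 ± 4.06 FPKM (SD, n = 3, log2 fold change -0.24, limma adjusted p = 0.0265). Dhps, whose enzyme transfers part of spermidine onto the Eif5a protein, rose from 6.11 ± 0.66 FPKM to 7.80 ± 0.60 FPKM (log2 fold change 0.31, limma adjusted p = 0.0295), and Eif5a2, the minor paralog, rose from 1.26 ± 0.16 FPKM to 1.83 ± 0.12 FPKM (0.33, limma adjusted p = 0.0286). Dohh, which completes hypusine, did not pass (0.02, limma adjusted p = 0.868). The calls of Eif5a and Eif5a2 were each lost without any 1 of 5 samples and that of Dhps without any 1 of 4, at limma adjusted p of up to 0.0925, 0.0987 and 0.0929, and both rises turned negative with scaling to T lineage genes.

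Among 8 genes of S-adenosylmethionine supply and methionine salvage, 1 fell and 1 rose. Ahcy, which clears S-adenosylhomocysteine, fell from 11.4 ± 0.72 FPKM to 8.74 ± 0.45 FPKM (SD, n = 3, log2 fold change -0.35, limma adjusted p = 0.00583). Mat2b, the regulatory subunit of methionine adenosyltransferase, rose by 0.22 on the log2 scale (limma adjusted p = 0.0306), a call lost without any 1 of 4 samples (limma adjusted p up to 0.109) and with median ratio scaling (limma adjusted p = 0.0531). With scaling to T lineage genes Mat2b was called lower (-0.21, limma adjusted p = 0.012). Mat2a, the catalytic subunit, was 44.8 ± 4.19 FPKM and 43.5 ± 3.18 FPKM (limma adjusted p = 0.731). The salvage enzymes Mtap, Mri1, Apip, Enoph1 and Adi1 did not pass, with log2 fold changes from -0.26 to 0.08.

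**Figure D4:**
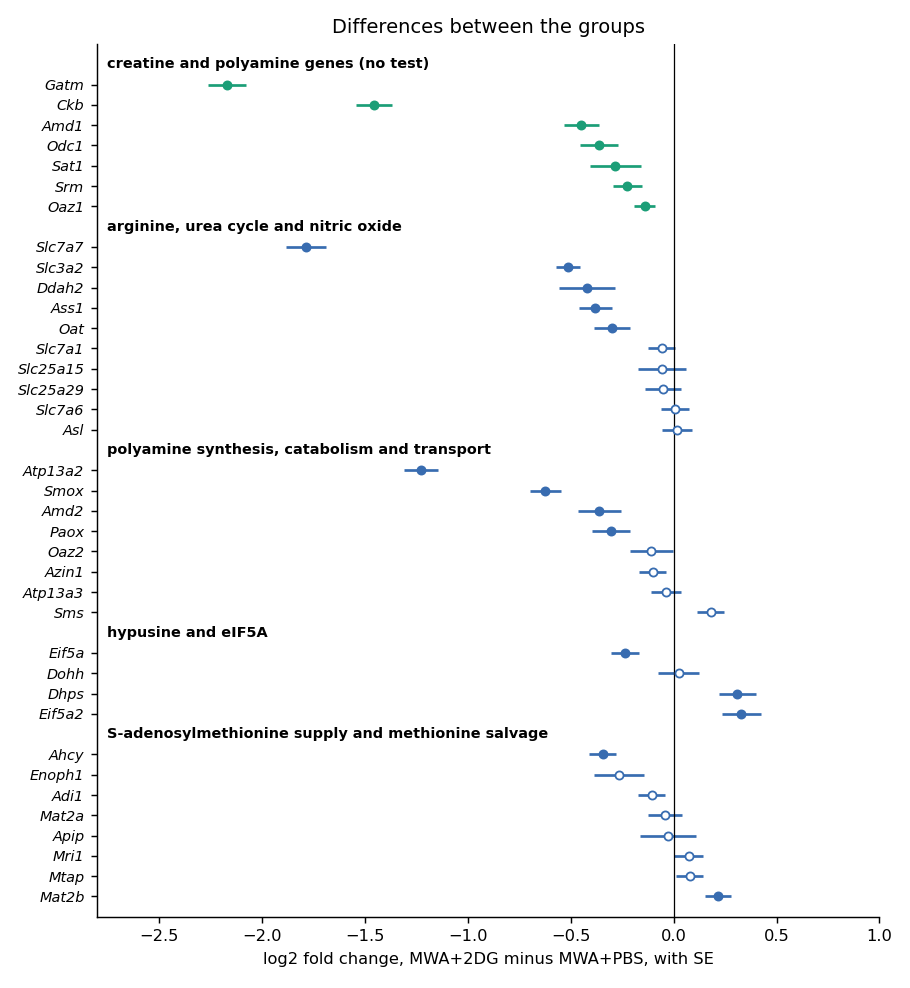
Log2 fold change with its SE (MWA+2DG minus MWA+PBS, on log2(FPKM + 1)) for the 7 fitted creatine and polyamine genes (green, no test) and the 30 fitted genes of the same pathways (blue). Filled blue points passed a limma adjusted p under 0.05; Slc7a7, at -1.79, and Atp13a2, at -1.23, fell most among them, and 3 genes rose.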

How the data were processed

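The study sequenced poly(A) RNA of CD8+ T cells from mouse spleen, with 3 samples per group. According to the methods, reads were checked with fastp, mapped with HISAT2 and assembled with StringTie, and the deposited FPKM values were computed by the authors with StringTie and ballgown. The submitters' processing notes name cutadapt 1.9, HISAT2 2.0.4, UMI-tools, StringTie 1.3.4d and the build mm9. Sequences here come from RefSeq (GRCm38.p6) and GENCODE M21 (GRCm38) and were matched by gene name, not by coordinates. FPKM keep no read counts, so the depth is unknown and counting error could not be given. Values carried at most 2 decimals.

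The 28773 gene IDs were matched to symbols in the GENCODE M21 gene table (28689 matched). Groups came from the sample titles. Genes with a mean of at least 1 FPKM over the 6 samples (12444) were fitted as log2(FPKM + 1) with limma 3.58.1 in R 4.3.3 (lmFit and trended eBayes). The two-sided contrast was MWA+2DG minus MWA+PBS, with Benjamini-Hochberg adjustment over all tested genes. This scale understates changes of low genes. The fit was tested on simulated data. Those data held no shift in cell types, so that test covers the working of the fit only. Copies were sought with BLAST 2.17.0. The genes, gene lists and tests were chosen with earlier results of these data known. The promoter motifs, ratios and scaling to macrophage markers were chosen after the values were seen. Named genes were the 9 genes, pathway genes called at an adjusted p under 0.05, paralogs of the 9, Azin1, Myc and the 3 closest profiles of genes with a log2 difference beyond 1. Asl, Slc7a1, Atp13a3, Dohh, Mat2a and the salvage enzymes, outside that rule, were named after their values were seen. A further gene of the set is not reported here.

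Alternatives were a pseudocount of 0.1, no filter, a filter at a mean FPKM of 5, median ratio scaling, quantile normalization, totals that omit ribosomal protein, haemoglobin, immunoglobulin and mitochondrial genes, scaling to the mean of 16 T lineage genes, eBayes without a trend, arrayWeights, and leaving out each sample.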

Additional observations from a re-analysis of the deposited data

How the results depend on the processing

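No paired analysis was made because nothing in the labels pairs samples between the groups. The sample titles number on through both groups, while the numbers of the value columns restart in each group. Scaling to T lineage genes moved all 7 fitted differences by more than the spread between replicates. Of the other alternatives, 11 could change their size, and in 74 of those 77 comparisons the difference moved by less than that spread. The rest were Gatm (-2.47) and Ckb (-1.89) with a pseudocount of 0.1 and Oaz1 (-0.19) with median ratio scaling. The filters and the variance model cannot change these differences, and Gamt and Slc6a8 were not tried otherwise. T lineage scaling lowered every gene by 0.43 on the log2 scale and took the median of all tested genes from 0.05 to -0.38. It gave 9060 called genes, 28 pathway genes lower and 0 higher, and it turned Sms (-0.25), Dhps (-0.12), Eif5a2 (-0.10), Mat2b (-0.21) and Myc (-0.16) negative, as any value between 0 and 0.43 had to. The stricter filter (mean FPKM 5) tested fewer genes and called 2951, with 6 pathway genes lower. Without a filter 1 pathway gene was higher and 8 lower, and the cause was not tested. Leaving out each sample gave 3669 to 5152 called genes, 0 to 4 pathway genes higher and 6 to 10 lower. Of the 14 pathway calls, 6 were the same under every alternative run in which the gene was tested, those of Slc7a7, Slc3a2, Ass1, Smox, Atp13a2 and Ahcy, and 8 were lost under at least 1. How much of the spread is counting error cannot be known from FPKM.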

Other observations

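Of the 48 pathway genes in the files, 18 stayed below the filter and were not tested. Among these, Slc7a2, a cationic amino acid transporter of macrophages and liver, was 0.22 ± 0.05 FPKM in MWA+PBS against 0.03 ± 0.03 FPKM in MWA+2DG (SD, n = 3), and its groups did not overlap. The neuronal nitric oxide synthase gene Nos1 was 0.083 ± 0.015 FPKM and 0.013 ± 0.006 FPKM. The inducible synthase gene Nos2 was 0.08, 0.07 and 0.00 FPKM and 0.00, 0.00 and 0.01 FPKM. The urea cycle genes Otc and Cps1 were listed at 0 in all 3 MWA+PBS samples and did not exceed 0.05 FPKM in MWA+2DG. These genes were named after their values were seen.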
